A study of Mus musculus with 89 samples.

Results

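Esrrb and Nr5a2 are orphan nuclear receptors of mouse embryonic stem cells (ESCs). They recognise closely related DNA sequences, a core of AAGGTCA or AAGGCCA preceded by a few further bases. When 2 such factors act on a gene independently, the log2 change after losing both is the sum of the changes after losing each, and a departure from this sum is called an interaction. A gene that is held by either factor changes mainly when both are lost, whereas a gene for which 1 loss already exhausts the effect changes less than the sum. The interaction was measured here in 2i/LIF, a medium with LIF and inhibitors of Mek and Gsk3 in which ESCs are kept in a naive state.

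The comparison used 12 poly-A RNA-seq libraries of 2i/LIF, of 89 samples in the series, chosen by their labels as all libraries of this assay and medium. They fall into 4 states with 3 replicates each. All cells are EKOiE ESCs, in which the endogenous Esrrb gene is knocked out and Esrrb is supplied by a doxycycline (Dox) inducible transgene. In +E+N, EKOiE cells were grown for 2 days with Dox at 1 µg/ml. In −E, EKOiE cells were grown for 2 days without Dox. In −N, EKOiE NrKO cells, in which exon 4 of Nr5a2 (the first part of its DNA-binding domain) is disrupted on both alleles, were grown for 2 days with Dox. In −E−N, EKOiE NrKO cells were grown for 2 days without Dox. Esrrb is thus withdrawn for days whereas Nr5a2 is absent throughout the life of the NrKO line, and the history of that line and the gene's loss cannot be told apart. The labels do not give the NrKO clone, and the supplementary methods speak of clone 4 where they describe reads over the deletion. The labels do not say whether replicates are separate cultures, while the paper's figure legends call the 3 replicates of 2i/LIF independent experiments. The p-values measure the spread between these libraries.

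The libraries held between 26653035 and 32526534 counts (median 28675445), and the TMM factors that scale them lay between 0.949 and 1.02. Of the ESC markers, Pou5f1, Sox2, Nanog, Zfp42, Utf1, Fgf4 and Dppa5a together gave 4600 to 4800 CPM (counts scaled to a common library total) in +E+N, 3780 to 4060 in −N, 4080 to 4660 in −E, then 1900 to 2510 in −E−N. Fibroblast markers summed to at most 25.6 CPM in any library, and the collagen gene Col1a1 to at most 2.45 CPM. Markers of the trophectoderm summed to 135 to 154 CPM in +E+N, 217 to 219 in −N, 118 to 134 in −E, then 409 to 625 in −E−N. Markers of the primitive endoderm summed to 233 to 290 CPM in +E+N, 93.6 to 122 in −N, 213 to 255 in −E, then 119 to 129 in −E−N. The largest member of this sum was Sparc, at 161 to 222 CPM in +E+N and 57.9 to 71.2 in −E−N. Lamb1 went the other way, at 12.4 to 14.8 CPM in +E+N and 26.1 to 42.8 in −E−N. By the same limits, 3 of the 11 members tested were higher and 3 lower in −E−N. Neural markers summed to 153 to 160 CPM in +E+N and to between 110 and 140 in the other states. Markers of the 2-cell stage summed to 7.94 to 13.7 CPM in +E+N, 29.8 to 71.3 in −N, 14.8 to 31.5 in −E, then 103 to 288 in −E−N. In bulk RNA, more cells of another type and more RNA per cell cannot be told apart. The part of such cells in the results below was not tested. Of the −E−N libraries, replicate 3 had the lowest Esrrb and Pou5f1 and the highest Krt8 and Krt18, and without it 22 interactions were called, against 44 with it.

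The targeted genes were read first. Esrrb (chr12:86361117-86521628, plus strand, mm10) gave 506, 601 and 599 CPM in +E+N, 406, 522 and 519 in −N, 440, 426 and 375 in −E and 170, 160 and 104 in −E−N. Its count pools the transgene with transcripts of the disrupted endogenous gene, so it does not measure Esrrb protein. The levels after Dox withdrawal lay far lower in NrKO cells than in Nr5a2-positive cells, with no overlap. The departure of -1.28 on the log2 scale (standard error (SE) 0.224) was not past the limit used here (adjusted p = 0.0186, edgeR), and it was past it with DESeq2 (adjusted p = 4.49e-06). Nr5a2 (chr1:136842571-136960448, minus strand) gave 61.3 to 78.7 CPM in +E+N, 63 to 76.8 in −N, 41.6 to 52.1 in −E, then 21 to 45.7 in −E−N. Transcripts of the disrupted alleles are counted with those of the intact gene, and the RNA count alone does not distinguish the NrKO line.

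A departure from the sum was called for 44 of 14355 genes tested, or 0.307%, at an adjusted p under 0.01. In −E−N, 30 of them lay below the additive value (0.209% of the genes tested) and 14 above it (0.0975%). The median departure over all genes tested was 0.00 on the log2 scale, and 90% of them lay between -0.65 and 0.79. For the 38 of them whose mean count was 100 or more, departures ranged in size from 0.63 to 3.43. All 44 genes were also called in −E−N against +E+N, a comparison that called 2672 genes (18.6%) by an adjusted p below 0.01 together with a fold change over 1.5, against 223 (1.55%) in −E and 524 (3.65%) in −N. In 39 of the 44 genes the 3 −E−N libraries all lay above or all below the other 9, which held for 22.5% of all genes tested. The same libraries entered the contrast that chose the 44 genes, so this separation describes them and is no separate evidence. Just inside the limit stood Hoxb13 and Hoxc12 (adjusted p = 0.00967 for each), and just outside it Peg3 and Tgfbi (adjusted p = 0.0108 for each).

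The number of calls depended on the test, on a term for the replicate number and on single libraries. DESeq2 called 303 genes (2.11%), with 178 lower and 125 higher, and 1962 genes (13.7%) had an unadjusted p under 0.05 in edgeR. All 44 genes were among those called by DESeq2, with the same sign. With the replicate number as a term, edgeR called 324 genes (182 lower, 142 higher) and kept all 44, though the labels do not say what the numbers mark. With 1 library left out the count fell to 16 without +E+N replicate 1, 10 without +E+N replicate 2, 10 without +E+N replicate 3, 17 without −E replicate 1, 11 without −E replicate 2, 24 without −E replicate 3, 7 without −N replicate 2, 10 without −N replicate 3, 23 without −E−N replicate 2 and 22 without −E−N replicate 3. It was 52 without −N replicate 1 and 40 without −E−N replicate 1. The sign of all 44 departures was kept in each of these fits, and the largest adjusted p of any of them was 0.0344. Notch4, Lrrc2, Gca, Hopx, Fabp3 and Eif4g3 were called whichever library was left out, and the other 38 lost the call in at least 1 of these fits.

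Each called gene was placed in a kind by its calls in −E, −N and −E−N against +E+N. Genes called in −E−N and in neither single loss, with a departure in the direction of the change, are named double only, and there were 25 of them (56.8% of the called genes). Genes called in a single loss and changed further than the sum are named enhanced, and there were 12 (27.3%). Genes changed in the same direction as a called single loss but by less than the sum are named saturated, and there were 4 (9.09%). Genes whose change in −E−N had the opposite direction to a called single loss are named reversed, and there were 3 (6.82%). No gene was cancelled, that is, called in a single loss and not in −E−N. Double only and enhanced genes are forms of synergy on the log2 scale, and saturated genes are counted as buffering because they changed less than the sum. In Lefty2 and Padi2, placed among the saturated genes, a second loss also moved the level back towards the control. In every kind, a single loss that was not called could have either direction. In the plot of the double loss against the sum of single losses, synergy lies farther from 0 than the diagonal and saturation nearer to it.

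**Figure D1:**
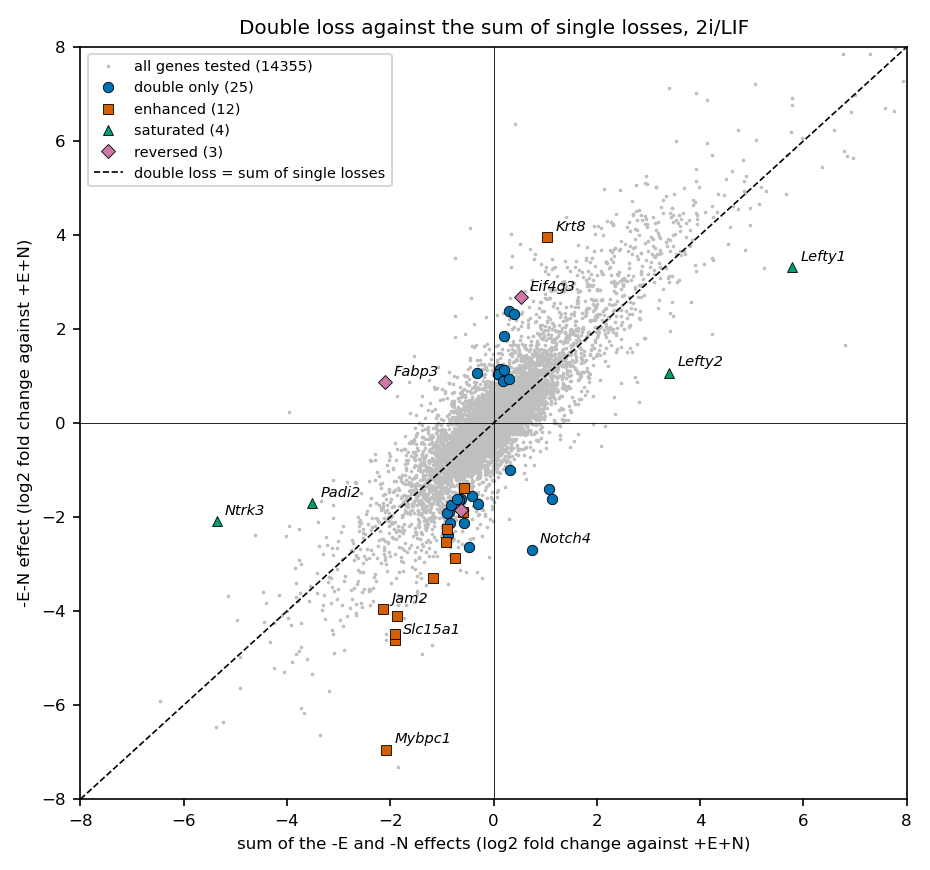
The −E−N log2 fold change (vertical) against the sum of both single-loss log2 fold changes, −E plus −N (horizontal), all against +E+N in 2i/LIF, for 14355 tested genes in grey and 44 called interaction genes by kind. Most genes follow the dashed line of additivity, while Krt8 and Notch4 lie well off it and Lefty1, Lefty2, Padi2 and Ntrk3 lie on the side of smaller change, with 18 grey genes falling outside the plotted range.

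The commonest pattern among interaction genes was a fall in −E−N with no called change in either single loss. The 16 genes that fell this way had a median change of -0.21 in −N, -0.35 in −E and -1.73 in −E−N on the log2 scale, and a median departure of -1.29. Notch4, a Notch receptor (chr17:34564268-34588503, plus strand), gave 15.7, 15.9 and 17.9 CPM in +E+N, 23.8, 24.1 and 25.5 in −N, 19.3, 20.4 and 15.9 in −E and 3.78, 2.39 and 1.46 in −E−N. All 3 −N libraries lay above the control libraries, and all 3 −E−N libraries lay far below them. Its departure of -3.43 (SE 0.311, adjusted p = 0.000566) was the largest in size among the 38 better-counted genes.

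Adgre5, the adhesion receptor CD97 (chr8:83723251-83741326, minus strand), stood at 104, 102 and 122 CPM in +E+N and at 97.7, 100 and 122 in −N. It was at 76.2, 72.9 and 77.3 CPM in −E and at 31.1, 23.2 and 21.2 in −E−N. The states +E+N and −N overlapped, −E lay between, and the departure was -1.55 (SE 0.184, adjusted p = 0.00328). Mitf, a basic helix-loop-helix transcription factor best known from pigment cells, went from 29.1 to 37.8 CPM in +E+N to between 5.16 and 7.46 in −E−N, with a departure of -1.52 (SE 0.229, adjusted p = 0.0087). Its levels of 21 to 29 CPM in −E and 21.3 to 27.6 in −N overlapped each other and nearly reached the control libraries. Slc7a3, a transporter of cationic amino acids, had a departure of -1.41 (SE 0.204, adjusted p = 0.00722), with 62.2 to 70.7 CPM in +E+N and 19.2 to 21.7 in −E−N.

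The same kind held 5 called members of the gene lists. Dppa2, a chromatin-associated factor of the early embryo, was at 156, 161 and 193 CPM in +E+N, 116, 143 and 151 in −N, 297, 223 and 266 in −E and 86.5, 90.7 and 76.8 in −E−N. Every −E library was above and every −E−N library below the controls, and the departure was -1.31 (SE 0.179, adjusted p = 0.00611). Ooep, a component of the subcortical maternal complex of the oocyte, had a departure of -1.02 and a change of -1.92 in −E−N (adjusted p = 0.00935 for the departure). Tead4, a transcription factor of the Hippo pathway needed for the trophectoderm, had a departure of -0.97 (adjusted p = 0.00932), with 29 to 31.9 CPM in +E+N and 8.45 to 11.2 in −E−N. Pim1, a kinase gene that responds to Stat3, had a departure of -0.91 (adjusted p = 0.00733), and Apcdd1, an antagonist of Wnt signalling, one of -1.14 (adjusted p = 0.00722). Outside the naming rule, the genes of this kind were Hopx, Gm17322, A930004D18Rik, Mreg, Cth, Dgke and Tmem64, listed to account for every member.

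Double only does not mean that the single losses had no effect, or that they had the direction of the double loss. In 14 of the 16 genes that fell, at least 1 single loss had an unadjusted p under 0.05, and in 3 of them at an adjusted p under 0.01 with a smaller fold. For Tead4 the change in −E was -0.56 (adjusted p = 0.00815), and for Pim1 the change in −N was -0.51 (adjusted p = 0.00473). In 4 of the 16 genes the −E change had the opposite sign to the fall, and in 4 the −N change did. For Dppa2 the −E change was 0.62 (adjusted p = 0.0124), just short of the limit that would place it among the reversed genes.

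The 9 genes that rose in −E−N alone had a median change of 0.33 in −N, -0.10 in −E and 1.12 in −E−N, and a median departure of 1.04. Fst encodes follistatin, a secreted antagonist of activin (chr13:114452290-114458951, minus strand). It gave 3.15, 1.98 and 2.62 CPM in +E+N, 3.56, 3.41 and 3.25 in −N, 2.5, 1.91 and 2.87 in −E and 14.7, 14.4 and 11.4 in −E−N. The states +E+N and −E overlapped, −N lay just above them, and −E−N stood apart, with a departure of 2.08 (SE 0.286, adjusted p = 0.00611). Gprc5c, an orphan G protein-coupled receptor, had a departure of 1.93 (SE 0.283, adjusted p = 0.00733), but its −E−N libraries were spread from 35.5 to 68.2 CPM, against 9.25 to 10.1 in +E+N. Cited2, a partner of the coactivators CBP and p300, was at 33.3 to 49.3 CPM in +E+N and at 72.5 to 100 in −E−N, with a departure of 1.38 (SE 0.214, adjusted p = 0.0094).

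Of the other genes of this kind, Tmem150a, a transmembrane protein gene, had a departure of 1.64, Slc4a2, an exchanger of chloride and bicarbonate, one of 1.04, and Suv39h1, a methyltransferase of histone H3 lysine 9, one of 0.97. Their adjusted p-values were 0.00419, 0.00733 and 0.008. Suv39h1 was at 27.3, 31.6 and 34.4 CPM in +E+N and at 62, 56.9 and 74.1 in −E−N, while its −E and −N libraries of 29.1 to 35.2 CPM overlapped the controls. Outside the naming rule this kind held Bcl9l, Ror2 and Rbbp7. A single loss had an unadjusted p under 0.05 in 5 of the 9 genes, and Rbbp7 also passed an adjusted p under 0.01 in −N with a change of 0.33. Except for Ror2, all had a −E change of opposite sign to their rise, between -0.02 and -0.46 in log2.

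Enhanced genes were changed by 1 factor and changed further when both were lost. In the 11 that fell, 9 were called in −N and 2 in −E, and median changes were -0.80 for −N, -0.11 for −E and -3.30 for −E−N. In 5 of the 11 the −E change had the opposite sign to the fall and was not called. Lrrc2, a leucine-rich repeat gene (chr9:110951545-110984066, plus strand), gave 32.4, 34.2 and 39.4 CPM in +E+N, 19.4, 21.9 and 23.6 in −N, 26.1, 25.5 and 25.1 in −E and 4.17, 3.7 and 2.92 in −E−N. The 4 states did not overlap, and the departure was -2.12 (SE 0.174), with the lowest adjusted p of all genes (0.000415). Gca, the calcium-binding protein grancalcin, was at 74.1 to 79.9 CPM in +E+N, 29.9 to 38 in −N, 81.3 to 104 in −E, then 12.3 to 13.8 in −E−N. With Nr5a2 present, every library without Dox lay above the controls, and the departure was -1.60 (SE 0.149, adjusted p = 0.000566).

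Jam2 and Slc15a1 were the enhanced genes called in −E. Jam2, a junctional adhesion molecule (chr16:84774123-84825928, plus strand), gave 214, 234 and 259 CPM in +E+N, 143, 163 and 188 in −N, 87.9, 73.8 and 66.3 in −E and 17.4, 16.5 and 11.5 in −E−N. The states were again separate, and the departure was -1.81 (SE 0.215, adjusted p = 0.00328). Jam2 is also the gene whose departure changed sign on a linear scale, where the mean CPM of −E−N minus both single-loss means plus the control mean was 10.1 (SE 19.4). Slc15a1, a transporter of small peptides, fell to between 4.06 and 4.56 CPM in −E and to between 0.211 and 0.977 in −E−N, from 12.2 to 15.4 in +E+N (departure -2.70, SE 0.412, adjusted p = 0.00913).

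Prdm14, a PR domain protein that represses differentiation genes in naive ESCs, was the only called member of the 20 core and naive pluripotency factors. It gave 53.4, 52.6 and 48.7 CPM in +E+N, 34.9, 32 and 35.2 in −N, 54.5, 55.5 and 47.3 in −E and 19.9, 20.8 and 19 in −E−N. The loss of Esrrb made no called difference with Nr5a2 present (0.02 in −E, adjusted p = 0.899), and the departure was -0.80 (SE 0.111, adjusted p = 0.00638). The other enhanced genes that fell, outside the naming rule, were Mybpc1, Gm13128, Hoxc12, Hoxb13, Mical1 and Gabarapl2. Mybpc1 had 1 count or fewer in each −E−N library against 3.12 to 3.45 CPM in +E+N, and no size is given for its departure.

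Krt8, a keratin of simple epithelia and of the trophectoderm, was the enhanced gene that rose (chr15:101996698-102004482, minus strand). It gave 10.5, 5.87 and 8.36 CPM in +E+N, 47.8, 42 and 46 in −N, 3.64, 2.44 and 3.28 in −E and 110, 92 and 185 in −E−N. The 3 −E libraries were the lowest of all 12. Without Nr5a2 the withdrawal of Esrrb raised Krt8 by 1.51 in log2 (SE 0.234, adjusted p = 0.00101), whereas with Nr5a2 the change was -1.41 and not called (adjusted p = 0.0161), and the departure was 2.92 (SE 0.377, adjusted p = 0.00435). Without −E−N replicate 3, its highest library, the departure was 2.57 and still called, while it kept the call in 5 of the 12 fits with 1 library left out.

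**Figure D2:**
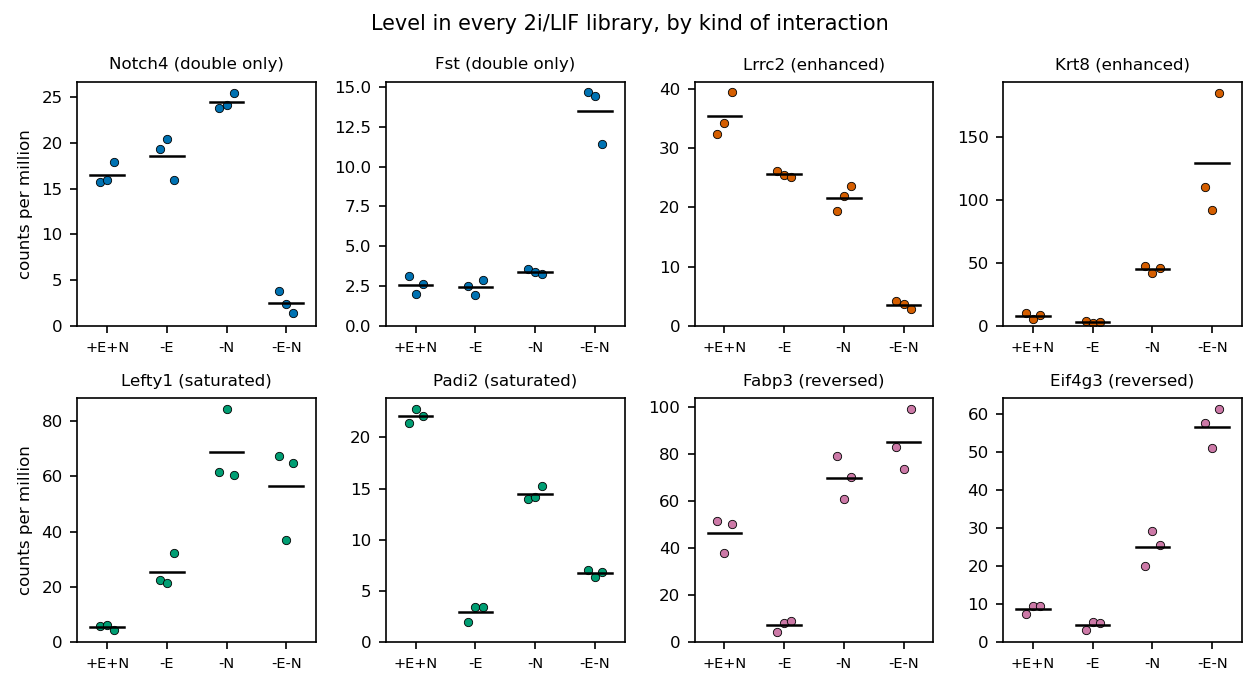
CPM (linear axes from 0) of 8 genes in each of the 12 libraries of 2i/LIF, grouped by state, with bars at the mean of 3 libraries. Notch4 and Fst differ mainly in −E−N, Lrrc2 and Krt8 change further than in either single loss, Lefty1 and Padi2 change less than the larger single loss, and Fabp3 and Eif4g3 lie below +E+N in −E and above it in −E−N.

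Saturated genes were few, and in all 4 the double loss was smaller than the larger single loss. In Lefty2 and Padi2 a second loss gave a called change back towards the control level. Lefty1 and Lefty2, which encode secreted antagonists of Nodal, lie 35.9 kb apart on chromosome 1 (chr1:180935022-180938400 and chr1:180893108-180899103, both plus strand). Their coding sequences are close copies and reads shared between them are divided by estimation, so the level of each is uncertain. Lefty1 gave 6.11, 6.46 and 4.32 CPM in +E+N, 61.7, 84.3 and 60.5 in −N, 22.4, 21.6 and 32.3 in −E and 67.4, 36.9 and 64.8 in −E−N. It rose by 2.18 in −E and by 3.61 in −N, and the −N and −E−N libraries overlapped, with a change of 3.32 in −E−N and a departure of -2.46 (SE 0.345, adjusted p = 0.00645).

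Lefty2 gave 9.55, 8.33 and 6.7 CPM in +E+N, 35.3, 41.7 and 27.5 in −N, 21.9, 17 and 22.4 in −E and 20, 12.4 and 19.3 in −E−N. Withdrawal of Esrrb raised it by 1.32 with Nr5a2 present (adjusted p = 0.0033) and lowered it by 1.01 in NrKO cells (log2 change -1.01, SE 0.2, adjusted p = 0.00425). The departure was -2.33 (SE 0.29, adjusted p = 0.00388).

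Padi2, a peptidylarginine deiminase, was placed in this kind with a fall (chr4:140906344-140952586, plus strand). It gave 21.4, 22.8 and 22.1 CPM in +E+N, 14, 14.2 and 15.3 in −N, 2, 3.46 and 3.41 in −E and 7.07, 6.34 and 6.85 in −E−N. The 4 states did not overlap, and −E−N lay between both single losses. Loss of Nr5a2 raised Padi2 by 1.19 in Esrrb-depleted cells (SE 0.168, adjusted p = 0.000237), and its change was -0.61 with Esrrb present (adjusted p = 0.0221, not called). The departure of 1.80 (SE 0.226, adjusted p = 0.00388) counts as higher than additive because the double fall was smaller than the sum. Ntrk3, outside the naming rule with a mean of 34.8 counts, had the same order of state means, with −N and −E−N overlapping, at 2.28 to 3.81 CPM in +E+N, 0.508 to 1.07 in −N, 0.212 to 0.321 in −E, then 0.554 to 0.916 in −E−N.

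In the 3 reversed genes the change in −E was called in one direction and the change in −E−N in the other. Fabp3, a fatty acid binding protein (chr4:130308595-130315463, plus strand), gave 51.6, 37.8 and 50.1 CPM in +E+N, 78.9, 60.8 and 70 in −N, 4.53, 8.17 and 8.88 in −E and 83, 73.4 and 98.9 in −E−N. It fell by 2.69 in −E, and in NrKO cells the change on Esrrb withdrawal was 0.28 (SE 0.19, adjusted p = 0.333). The −N and −E−N libraries overlapped, and the departure was 2.98 (SE 0.286, adjusted p = 0.000626).

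Eif4g3, a scaffold of the translation initiation complex (chr4:137993022-138208508, plus strand), gave 7.56, 9.47 and 9.63 CPM in +E+N, 20.1, 29.4 and 25.5 in −N, 3.35, 5.3 and 4.98 in −E and 57.7, 51.1 and 61.4 in −E−N. Esrrb withdrawal lowered it with Nr5a2 (log2 change -0.96, adjusted p = 0.00937) and raised it without Nr5a2 (log2 change 1.18, adjusted p = 0.000438), and the departure was 2.15 (SE 0.246, adjusted p = 0.00286). Clgn, the chaperone calmegin (chr8:83389867-83428552, plus strand), gave 17.6, 18.4 and 17.7 CPM in +E+N, 6.29, 6.53 and 8.09 in −N, 27, 31.6 and 30.2 in −E and 4.76, 5.67 and 4.41 in −E−N. It rose in −E by 0.73 (adjusted p = 0.00352) and fell in −N and −E−N, with a departure of -1.23 (SE 0.174, adjusted p = 0.00652).

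Each factor was also compared in the presence and absence of the other, in comparisons that share no library. Of the 160 genes called lower in −E, 106 (66.2%) were called lower on Esrrb withdrawal in NrKO cells, with a median change of -1.34 in the first and -1.16 in the second. Of 63 called higher in −E, 37 (58.7%) were called higher in NrKO cells, with medians of 1.14 and 0.89. Esrrb withdrawal called 970 genes (6.76%) in NrKO cells, and the 483 lower ones had a median change of -0.53 with Nr5a2 present, the 487 higher ones of 0.57. Eif4g3 and Lefty2 were the only genes called in opposite directions in these comparisons.

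For Nr5a2, 212 of 231 genes called higher in −N (91.8%) and 247 of 293 called lower (84.3%) were called in the same direction when Nr5a2 was lost in Esrrb-depleted cells. Their medians were 1.63 and -1.15 with Esrrb and 1.84 and -1.45 without it. Nr5a2 loss called 1883 genes (13.1%) in Esrrb-depleted cells, 991 higher and 892 lower, with medians of 0.76 and -0.69 for the same genes when Esrrb was present. No gene was called in opposite directions. Medians in the comparison that chose the genes are raised by that choice, and those in the other comparison are not.

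Of the 20 core and naive pluripotency factors, 17 had a departure below 0, with a median of -0.47 against 0.00 over all genes tested. Of the 20, 1 passed the edgeR limit and 7 that of DESeq2, all lower. An unadjusted p under 0.05 was found for 12, of which 11 were lower. Over all genes tested these shares were 0.307%, 2.11% and 13.7%. Nanog, a core factor, gave 772, 927 and 1000 CPM in +E+N, 564, 632 and 679 in −N, 864, 907 and 828 in −E and 369, 343 and 333 in −E−N. Its −E libraries lay within the range of the controls, and its departure was -0.79 (SE 0.133, edgeR adjusted p = 0.0149, DESeq2 adjusted p = 5.5e-06).

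Nr0b1, a nuclear receptor without a DNA-binding domain known as a target of both factors, gave 43.8, 27 and 27.9 CPM in +E+N, 12.8, 13.1 and 13.4 in −N, 12.6, 5.16 and 6.21 in −E and 0.586, 0.176 and 0.203 in −E−N. Both single losses were lower than the controls in every library, and −E−N was lower again, with a departure of -3.27 (SE 0.569, edgeR adjusted p = 0.0181, DESeq2 adjusted p = 1.11e-07). Fgf4, the Fgf ligand that drives Erk in ESCs, had a departure of -1.56 (SE 0.265, edgeR adjusted p = 0.0149), Zfp42 (Rex1) one of -0.83 (SE 0.156, adjusted p = 0.0243), Klf4 one of -0.87 (SE 0.205, adjusted p = 0.0643) and Tdgf1, a coreceptor of Nodal, one of -1.81 (SE 0.383, adjusted p = 0.0395). These 4 also passed the limit of DESeq2.

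The other members of the list were called by neither tool. The departure was 0.03 for Tfcp2l1 (SE 0.188), -0.02 for Sall4 (SE 0.104), -0.08 for Mybl2 (SE 0.117), -0.10 for Klf5 (SE 0.286), -0.24 for Zfp57 (SE 0.163) and -0.30 for Sox2 (SE 0.195). Pou5f1 (Oct4) had a departure of -0.51 (SE 0.182, adjusted p = 0.224), with 1280 to 1370 CPM in +E+N and 730 to 1090 in −E−N, the lowest in replicate 3. For Tbx3 the departure was -0.44 (SE 0.162), for Klf2 -0.37 (SE 0.17), for Tcl1 -1.03 (SE 0.281) and for Utf1 -1.59 (SE 0.639). Gbx2 and Dppa3, which rose in −E−N, had departures of 0.41 (SE 0.151) and 0.38 (SE 0.472).

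The formative and primed epiblast factors had no called interaction among 22 tested, 13 with a departure below 0 and a median of -0.21. DESeq2 called 3, all lower, namely Etv4 (-1.08, SE 0.292), Etv5 (-0.75, SE 0.187) and Foxd3 (-1.16, SE 0.283). In edgeR, 7 had an unadjusted p under 0.05. Of all genes tested, 2.11% were called by DESeq2 and 13.7% had such a p. Lef1, a transcriptional effector of Wnt, rose from 0.587 to 0.946 CPM in +E+N to 2.39 to 4.13 in −E, 5.41 to 9.07 in −N and 21 to 26.7 in −E−N. Its departure of -0.16 (SE 0.381) was small beside its change of 5.03 in −E−N.

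The rest of the list had departures of either sign. Otx2 stood at 1.35 to 1.83 CPM in +E+N and at 2 counts or fewer in each −E−N library, so its fitted value depends on the prior count and no size is given for it. Dnmt3l had one of -0.69 (SE 0.285), Tcf15 one of -0.60 (SE 0.379) and Dnmt3a one of -0.44 (SE 0.154). Cdh2 had one of 0.88 (SE 0.493), Sox11 one of 0.55 (SE 0.482), Lin28a one of 0.50 (SE 0.274), Zic2 one of 0.33 (SE 0.285) and Sox4 one of 0.24 (SE 0.457). The departures of Lin28b, Zic5, Zfp281, Sox3, Dnmt3b, Grhl2, Pou3f1 and Tead2 lay between -0.29 and 0.14, and Fgf5 was not tested because its counts were too low.

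**Figure D3:**
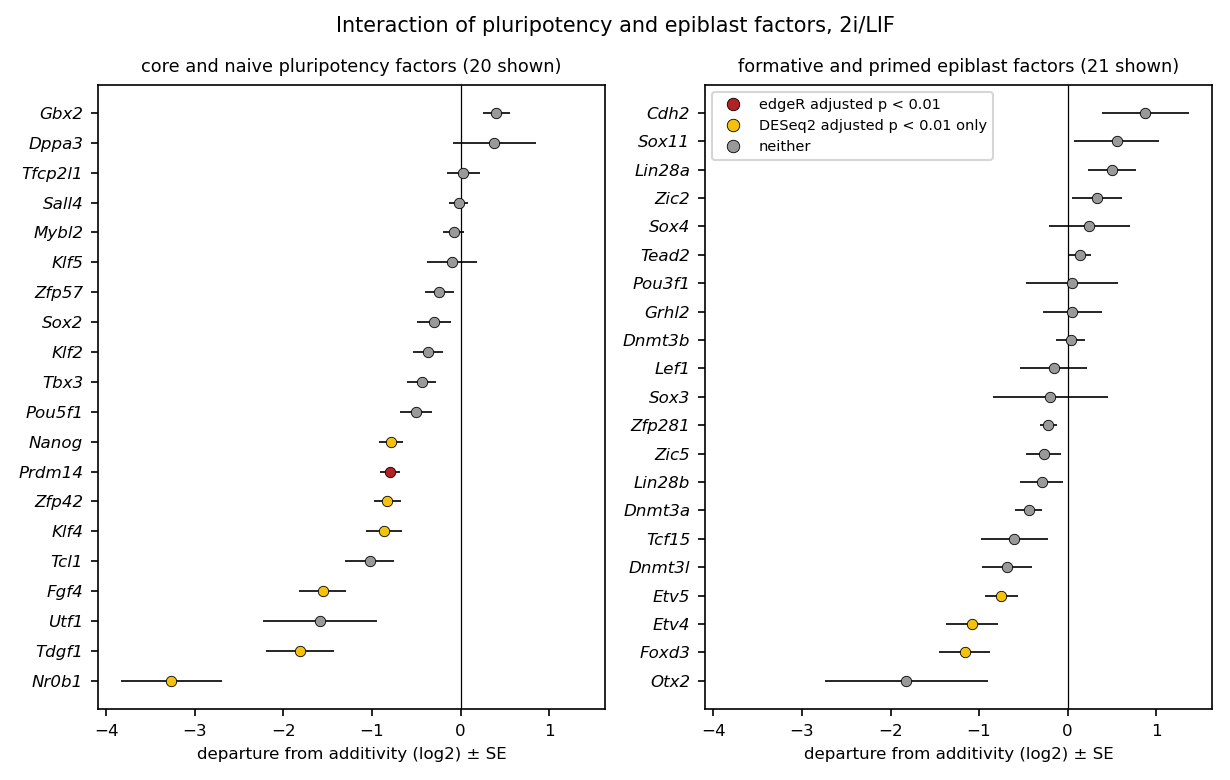
Departure from additivity in 2i/LIF (log2, horizontal; bars are 1 SE) of 20 core and naive pluripotency factors (left) and 21 formative and primed epiblast factors (right), ordered by value, red for genes past adjusted p 0.01 in edgeR and yellow for those past it in DESeq2 alone. On the left 17 of 20 points lie below 0, with Nr0b1 lowest and Prdm14 alone in red, and on the right 12 of 21 lie below 0.

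The genes of Nodal, activin and Bmp signalling held 3 called interactions among 16 tested (2 lower, 1 higher), and DESeq2 called 7 (6 lower). Over all genes tested the shares were 0.307% by edgeR and 2.11% by DESeq2. The called genes were Lefty1, Lefty2 and Fst. Those called by DESeq2 alone, named after their values were seen, included Tdgf1, the ligand Nodal and the activin subunit gene Inhbb. Nodal gave 59.9, 63.2 and 62.8 CPM in +E+N, 38.2, 41.1 and 43.7 in −N, 54.1, 40.4 and 30.8 in −E and 12.5, 7.54 and 6.24 in −E−N, with a departure of -1.66 (SE 0.311, edgeR adjusted p = 0.0238). The Nodal antagonists were thus above their control level in −E−N while the ligand was at its lowest. Smad7, Id1, Id2, Id3 and the other members of the list were not called by edgeR.

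The trophectoderm markers had a median departure of 1.10 over 10 tested genes, with 2 called (Krt8 higher, Tead4 lower). DESeq2 called 6 (2 lower), and 8 had an unadjusted p under 0.05 (2 lower). Over all genes tested the shares were 0.307% called, 2.11% by DESeq2 and 13.7% under that unadjusted p. Krt18, the partner of Krt8, gave 3.66 to 5.59 CPM in +E+N, 29.7 to 31.9 in −N, 3.35 to 5.33 in −E, then 76.6 to 131 in −E−N, and its departure of 1.73 (SE 0.316) missed the edgeR limit (adjusted p = 0.0198). Cdx2, a defining factor of the trophectoderm, rose in −E−N to 40.5 to 53.5 CPM from 0.661 to 2.55 in +E+N, with a departure of 1.05 (SE 0.766, adjusted p = 0.597), a departure of less than 2 SE. Other members went the other way. Eomes was at 7.22 to 11.7 CPM in +E+N and 2.34 to 2.74 in −E−N, and Tfap2a at 8.49 to 11.1 and 2.44 to 2.85. Elf5 stood at 0.563 CPM or less and Hand1 at 0.17 or less in every library.

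Of the Wnt targets and feedback genes, 13 of 18 rose in −E−N, where 1300 of all 14355 genes tested rose and 1372 fell. The median departure of this list was 0.41, edgeR called 1 interaction (Apcdd1, lower) and DESeq2 called 3 (1 lower). Of the LIF-Stat3 genes, edgeR called 1 of 13 (Pim1) and DESeq2 3, all lower than additive, and 5 of 13 fell in −E−N. The subcortical maternal complex and Dppa genes had 2 of 9 called by edgeR (Dppa2 and Ooep) and 4 by DESeq2, all lower, with a median departure of -0.68. The 2-cell-stage genes all rose in −E−N (7 of 7 tested), with a median departure of 1.18. Of them 0 were called by edgeR or DESeq2, and 2 had an unadjusted p under 0.05. Over all genes tested, edgeR called 0.307% and DESeq2 2.11%, and 13.7% had an unadjusted p under 0.05.

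No call was made among primitive endoderm markers (median departure 0.43, 11 tested), mesoderm and primitive streak genes (-0.59, 6 tested), neural markers (0.17, 8 tested), fibroblast markers (0.16, 5 tested), Fgf-Erk genes (0.05, 16 tested), nuclear receptors (0.04, 22 tested) or DNA methylation genes (-0.09, 10 tested). At an unadjusted p under 0.05 these lists had 5, 2, 1, 1, 5, 5 and 6 genes, and DESeq2 called 1, 2, 0, 0, 4, 2 and 1. The same held for cholesterol synthesis and uptake (0.01, 23 tested, 1 at an unadjusted p under 0.05 and 0 by DESeq2), for glycolysis (-0.13, 24 tested, 3 and 1) and for p53 targets (0.08, 13 tested, 2 and 1). These medians stand beside one of 0.00 over all genes tested. Of all those genes, 13.7% had an unadjusted p under 0.05 and 2.11% were called by DESeq2.

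The promoters of called genes were searched on both strands for TCAAGGTCA, TCAAGGCCA and AAGGTCA, where AAGGTCA also matches inside TCAAGGTCA. The paper reports that Esrrb favours TCAAGGTCA and that Nr5a2, more markedly, favours TCAAGGCCA. The shorter form with C, AAGGCCA, was not searched, so the short match covers only the form that Esrrb favours. The windows of 300 bases from RefSeq (250 before and 50 after each start, GRCm38.p6) cover 24 of the 44 called genes. Of these 24 genes 1 held TCAAGGCCA (4.17%) and 1 AAGGTCA (4.17%), and both matches were in Mitf. Over 10446 tested genes with a window the shares were 0.488% and 3.93%, and 0.325% held TCAAGGTCA, which none of the 24 held. Over all 27025 genes with a window the shares were 0.466% for TCAAGGTCA, 0.696% for TCAAGGCCA and 5.38% for AAGGTCA. The Mitf matches lie in windows of different starts and are shown because they are the only ones among called genes. The first begins 231 bases and the second 152 bases before its start, the capitals mark the match on the opposite strand, and the regions are chr6:97991533-97991590 and chr6:97806876-97806942.
Mitf, TCAAGGCCA: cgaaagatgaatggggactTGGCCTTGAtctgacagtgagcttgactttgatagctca
Mitf, AAGGTCA: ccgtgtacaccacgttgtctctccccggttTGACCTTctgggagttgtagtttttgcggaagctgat

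The same contrast was fitted in FCS/LIF, the serum medium, with 8 libraries (2 per state), in which 5 of 15636 genes (0.032%) were called and 1384 had an unadjusted p under 0.05. Medium and culture batch cannot be told apart. Of the 44 genes called in 2i/LIF, 41 were tested in FCS/LIF, 29 had a departure of the same sign there, 12 of these at an unadjusted p under 0.05, and 1 was called. Lefty1, Lefty2, Pim1, Tead4 and Mitf, with Cth and Gabarapl2 outside the naming rule, had the opposite sign at an unadjusted p under 0.05. All of these were lower than additive in 2i/LIF and higher in FCS/LIF. The share of same-sign departures over all genes tested was not measured. The called gene was Jam2, with -1.31 (SE 0.111, adjusted p = 0.00519) against -1.81 in 2i/LIF. Mreg, named after its values were seen, had -1.08 (SE 0.154) against -1.27, Lrrc2 had -1.22 (SE 0.126) against -2.12, and Prdm14 had -0.86 (SE 0.348) against -0.80.

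In FCS/LIF, Notch4 had -0.92 (SE 0.273) against -3.43 in 2i/LIF. Gca had -0.20 (SE 0.128), Fst 0.28 (SE 0.211) and Krt8 0.47 (SE 0.335) in FCS/LIF. Lefty1 and Lefty2 had 0.54 (SE 0.104) and 0.50 (SE 0.104) there, with opposite sign to 2i/LIF. When both media were fitted together (20 libraries), no gene of 16147 (0%) had a difference of the interaction between media at an adjusted p under 0.01 by edgeR, whereas 1011 had an unadjusted p under 0.05 and DESeq2 called 64. The genes were chosen by their 2i/LIF departure, which is thereby raised in size relative to the other medium.

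**Figure D4:**
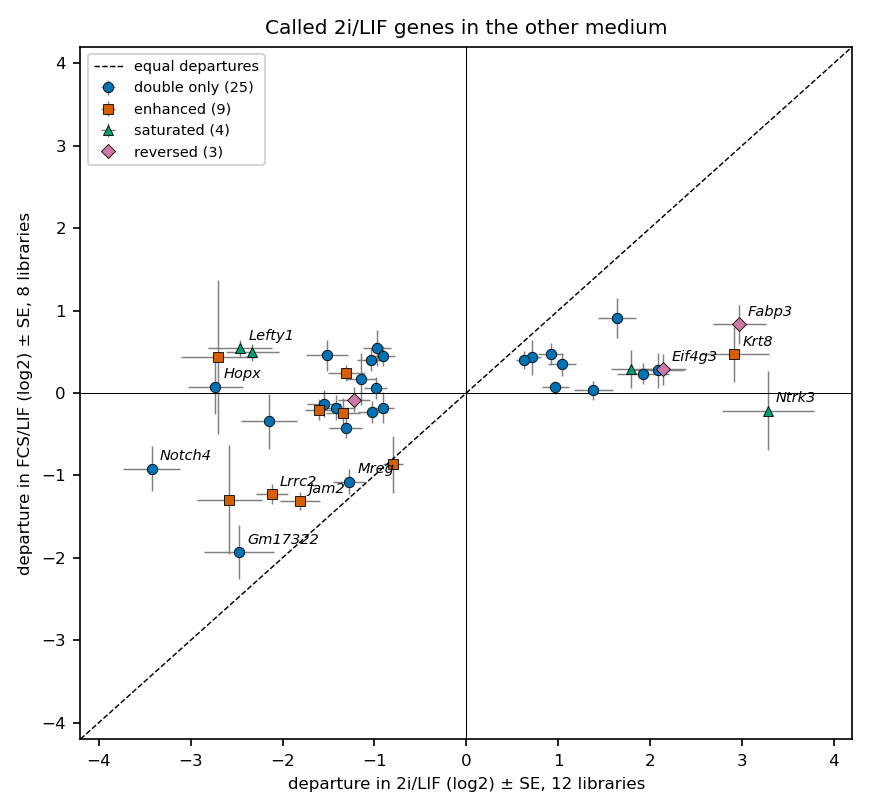
Departure from additivity in FCS/LIF (vertical, 8 libraries) against that in 2i/LIF (horizontal, 12 libraries), both in log2 with bars of 1 SE, for the 41 called 2i/LIF genes tested in both media, by kind. In 40 of 41 genes the departure is smaller in size in FCS/LIF, Mreg, Jam2 and Gm17322 lie nearest to the dashed line of equal departures among the labelled genes, and Lefty1 lies on the opposite side of 0.

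Some limits bear on single genes. The counting is not stated to use strand, and 16 of the 44 called genes share exon bases with a gene on the opposite strand, among them Adgre5 (23.8% of its exon bases, with Ddx39), Gca (20.4%, with Kcnh7), Pim1 (14.5%) and Suv39h1 (14.6%). On the linear CPM scale 43 of 44 departures kept their sign and 39 exceeded 2 SE.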

How the data were processed

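Poly-A RNA-seq was compared in 12 libraries of mouse ESCs in 2i/LIF, 3 for each of 4 states, with 8 libraries of FCS/LIF beside them. The reads were paired-end and stranded. The authors used STAR with the mm10 genome and then RSEM, whose expected count for each gene they deposited, rounded and not scaled for depth. TPM from the same RSEM run was deposited beside it. The tables hold 54238 rows, of which 92 are spike-in sequences left out here. Gene coordinates are those of GENCODE vM21 (mm10).

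A gene was tested if every replicate of 1 or more states held 20 counts, and tested genes were fitted with edgeR 4.0.16 in R 4.3.3 (TMM, quasi-likelihood test), all 4 states of a medium together. The interaction is the −E−N change in log2 less the sum of both single-loss changes, each against +E+N, called at a Benjamini-Hochberg adjusted p under 0.01 with no limit on its size. Responses to loss were called at an adjusted p under 0.01 and a fold change over 1.5. Every p-value without another tool named is from this test. CPM is the count over the TMM-scaled library total. DESeq2 1.42.0 (Wald test without independent filtering), log2(TPM + 1) or log2(TPM + 0.1) tested with limma 3.58.1, other filters and scalings, the replicate number as a block, all 20 libraries in one fit and leaving out each library were alternatives. At these depths a gene near 20 counts carries a much larger sampling error than one of 1000 or more. Libraries of 1 state differed by more than sampling noise (chi-square per degree of freedom 5.73 to 31.1), so none was counted as a repeat. In simulated data for the interaction over 14355 genes, 94% of 100 departures of 2 in log2 were called, 70% of 100 of size 1, and 1 unchanged gene. The departures were placed only in genes with a mean of 100 or more counts. Libraries were drawn independently from the fitted dispersions, so these rates cover neither lower counts nor effects shared by libraries of the same replicate number.

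Genes were named by a rule: the 2 targeted genes; the 10 lowest and 10 highest departures, and the 4 largest per kind and direction, among called genes whose mean count was 100 or more, with the same sign in all 3 same-numbered sets and a curated symbol; called members of the gene lists; and all members of the core and naive and of the formative and primed lists. It names 27 of the 44 called genes. Members and lists were chosen with earlier results of these data known. A few members of the lists enter the counts but are not reported here by name. ChIP-seq was not analysed here.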

Additional observations from a re-analysis of the deposited data

Results flagged for a closer look

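The interaction is itself a difference between groups, since the effect of Esrrb withdrawal differed by the test of that difference between cells with and without Nr5a2 in 44 genes. Between media, no gene passed an adjusted p under 0.01 in edgeR. At an adjusted p under 0.05, 17 genes of 16147 did, of which 11 were called in 2i/LIF and 10 of these were lower than additive there. As FCS/LIF minus 2i/LIF departure on the log2 scale, Lefty1 differed by 3.00 (adjusted p = 0.0228, edgeR), Lefty2 by 2.82 (adjusted p = 0.0154), Pim1 by 1.36 and Gca by 1.40 (adjusted p = 0.0228 for each), Mitf by 1.97 (adjusted p = 0.0414), Tead4 by 1.51 (adjusted p = 0.0418) and Eif4g3 by -1.86 (adjusted p = 0.0496). Hopx, Cth, Dgke and Gabarapl2 fall outside the naming rule and differed by 2.81, 1.44, 1.04 and 1.55. For these genes the choice by the 2i/LIF departure adds to the difference. With 3 libraries a state, no outlier test was run.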

How the results depend on the processing

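DESeq2 size factors, filterByExpr and a size limit of log2(1.5) left every count within 1.5 times. DESeq2's test gave 303 interactions (178 lower, 125 higher), of which 126 double only, 79 enhanced, 11 saturated, 14 cancelled, 12 reversed and 61 of none of these kinds, with 447 genes in −E, 860 in −N and 64 for the difference between media. No filter on low counts gave 212 (136 and 76), with 99, 68, 7, 11, 11 and 16 genes in the same order of kinds, and 401, 828 and 238. An adjusted p under 0.05 gave 200 (120 and 80), with 88, 54, 8, 9, 13 and 28, and 487, 980 and 17. All 20 libraries in one fit gave 130 (75 and 55), with 72, 32, 6, 4, 7 and 9, and 356 in −E. limma on log2(TPM + 1) gave 11 (3 and 8), with 6, 3, 1, 1, 0 and 0, 136 in −E and 313 in −N, and kept the sign of all 44 genes and the call of 8. On log2(TPM + 0.1) it gave 7 (3 and 4), with 4, 0, 1, 1, 1 and 0, 146 and 309.

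The replicate block, with the shared replicate number as a term, gave 324 interactions (182 lower, 142 higher), with 138, 78, 13, 19, 13 and 63 genes in the same order of kinds, 596 in −E, 1115 in −N and 54 for media. The labels do not say what the numbers mark. Deviations of same-numbered libraries correlated at over 0.1 in 17 of 18 pairs, with a lowest value of -0.0126, and since this did not hold for every pair the numbers were not taken as pairs. In 33 of 36 comparisons a library correlated best with the same number, a hint from the data and not the design. The block kept all 44 calls.

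Leaving out 1 library gave 7 to 52 interactions (4 to 36 lower, 2 to 16 higher), 3 to 32 double only, 2 to 10 enhanced, 0 to 4 saturated, 0 to 1 cancelled, 0 to 4 reversed and 0 to 3 other genes, with 87 to 251 in −E, 244 to 574 in −N and 2182 to 2743 in −E−N. Fewer libraries leave fewer degrees of freedom. On the linear scale Jam2 reversed, at 10.1 CPM (SE 19.4). The causes of the other differences were not tested.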
